A study of Mus musculus with 20 samples.

Results

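The promoters described here are 1063 regions of mono-methylation of lysine 4 of histone H3 (H3K4me1) that shared 1 bp or more with a promoter region of tri-methylation of the same lysine (H3K4me3) and that gained H3K4me1 most strongly after deletion of Ash2l in mouse fibroblasts. A region was taken when it held 50 or more reads after deletion in both cell lines and when log2((+HOT + 1)/(-HOT + 1)) of its H3K4me1 reads was over 1.8 in both. These 1063 regions are 10.2% of the 10425 promoter H3K4me1 regions with 50 or more +HOT reads in both lines (the eligible regions). They come from 117165 H3K4me1 regions with whole-number coordinates, which leaves out a stretch of chromosome 1. They sit in 1035 H3K4me3 regions, and the authors' annotation gives them 1028 readable gene names. For 839 regions (78.9%) the nearest annotated TSS has the same name, and at Meis2 it is that of G630016G05Rik.

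The cells were immortalized mouse embryo fibroblasts (iMEF cells), derived independently from different litters as the lines KO1 and KO2. Both carried floxed alleles of exon 4 of Ash2l (Ash2l fl/fl), the hormone-dependent recombinase Cre-ER and an shRNA against p19Arf that immortalized them. Each line received 5 nM 4-hydroxytamoxifen (+HOT), which activates Cre-ER, or the vehicle ethanol (-HOT) for 5 days, and chromatin was immunoprecipitated (ChIP-seq) for each mark. For each mark, line and condition there was 1 library, so 8 libraries were used; libraries of wild type lines and input chromatin were not used here, and the effect of HOT without the deletion was not tested. The tables hold no value that checks loss of exon 4.

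KMT2 methyltransferases place methyl groups on H3K4, and Ash2l is a core subunit that these complexes need for full activity. In most cells H3K4me3 marks the transcriptional start site (TSS) of active genes, while H3K4me1 lies beside it and at enhancers. The centre of an active promoter, where the fully methylated form prevails, is therefore usually poor in H3K4me1.

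The 200 bases at the centre of a region show the kind of sequence that gained H3K4me1. They are given for the 5 regions with the highest mean ratio whose centre lies in no annotated exon, and, for contrast, for the 3 eligible regions inside an H3K4me3 region whose mean H3K4me1 ratio was lowest by the same criteria. Sequences are from NCBIM37 (mm9), read 5′ to 3′ on the strand of the nearest annotated TSS, and capitals mark each CpG dinucleotide, the target of DNA methylation that is dense in CpG island promoters.
Mir193a, chr11:79525269-79525468, plus strand: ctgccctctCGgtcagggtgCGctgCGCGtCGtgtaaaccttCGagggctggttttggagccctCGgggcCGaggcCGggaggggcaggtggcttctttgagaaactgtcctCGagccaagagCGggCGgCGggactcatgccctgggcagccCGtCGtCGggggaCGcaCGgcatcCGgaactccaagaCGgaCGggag
Rbpj, chr5:53981067-53981266, plus strand: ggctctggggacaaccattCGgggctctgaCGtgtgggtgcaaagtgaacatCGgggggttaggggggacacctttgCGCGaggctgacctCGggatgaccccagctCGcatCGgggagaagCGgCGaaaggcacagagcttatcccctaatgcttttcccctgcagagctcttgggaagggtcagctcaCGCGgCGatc
Ing1, chr8:11557291-11557490, plus strand: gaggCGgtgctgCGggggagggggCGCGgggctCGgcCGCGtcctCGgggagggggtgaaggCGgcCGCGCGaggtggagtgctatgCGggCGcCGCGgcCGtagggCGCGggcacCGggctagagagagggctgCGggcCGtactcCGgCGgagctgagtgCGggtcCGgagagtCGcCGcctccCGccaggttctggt
Meis2, chr2:115892422-115892621, plus strand: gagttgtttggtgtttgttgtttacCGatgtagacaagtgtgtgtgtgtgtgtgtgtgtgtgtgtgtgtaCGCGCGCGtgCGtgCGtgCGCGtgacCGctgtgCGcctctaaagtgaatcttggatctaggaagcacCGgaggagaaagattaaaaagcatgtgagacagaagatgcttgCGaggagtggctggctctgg
Por, chr5:136165346-136165545, plus strand: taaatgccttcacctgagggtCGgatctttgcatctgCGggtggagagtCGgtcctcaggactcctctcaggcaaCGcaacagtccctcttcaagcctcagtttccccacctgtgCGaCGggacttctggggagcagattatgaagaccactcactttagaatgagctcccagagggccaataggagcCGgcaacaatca
Arhgef2 (contrast), chr3:88422465-88422664, plus strand: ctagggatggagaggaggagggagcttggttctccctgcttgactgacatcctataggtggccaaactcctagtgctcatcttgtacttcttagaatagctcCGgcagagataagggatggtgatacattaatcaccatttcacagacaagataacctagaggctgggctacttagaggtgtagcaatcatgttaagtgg
Fut11 (contrast), chr14:21515837-21516036, plus strand: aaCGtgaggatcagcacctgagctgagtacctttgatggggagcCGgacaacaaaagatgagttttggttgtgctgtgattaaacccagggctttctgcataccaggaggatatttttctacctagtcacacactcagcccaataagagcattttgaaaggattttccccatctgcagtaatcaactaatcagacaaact
Pisd-ps2 (contrast), chr17:3082738-3082937, minus strand: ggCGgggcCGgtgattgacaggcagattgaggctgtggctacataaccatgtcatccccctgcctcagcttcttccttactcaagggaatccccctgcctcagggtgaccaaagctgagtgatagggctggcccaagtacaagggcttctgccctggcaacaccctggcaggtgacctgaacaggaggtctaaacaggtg
The windows with a strong gain held 21 (Mir193a), 13 (Rbpj), 29 (Ing1), 13 (Meis2) and 7 (Por) CpG, and the contrast windows held 1 (Arhgef2), 2 (Fut11) and 2 (Pisd-ps2). At Arhgef2, which encodes a guanine nucleotide exchange factor, the region held 86 H3K4me1 reads in -HOT and 51 in +HOT of KO1 and 93 and 61.8 in KO2. Reads here and below are the authors' values, in which the deeper library of a line was scaled down to the other. The exception is H3K4me1 in KO1, where both libraries are labelled raw counts.

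H3K4me1 at these promoters went from low levels to densities at or above those of other promoters. Over the 1063 regions, the KO1 libraries held from 2 to 192 reads in -HOT (median 17) and from 50 to 690 in +HOT (median 83), and the KO2 libraries from 1 to 216 (median 21) and from 50 to 833 (median 113). The regions were chosen by these H3K4me1 values, which are given as a description, with no test. The median log2 ratio was 2.22 in KO1 and 2.33 in KO2, against 0.26 and 0.02 over all H3K4me1 regions and 1.02 and 0.98 over the 9362 other eligible regions. Both KO1 libraries are labelled raw counts, and the share of library depth in the KO1 ratios was not tested. With the median ratio of all H3K4me1 regions set to 0 in each line, 693 regions met the rule. In 41 regions the log2 ratio was over 3 in both lines. Another 439 eligible regions passed 1.8 in KO1 only and 689 in KO2 only. In bulk chromatin, more cells that carry the mark and more mark per cell cannot be told apart.

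The region with the highest mean ratio is annotated to Mir193a, a microRNA gene (chr11:79524849-79525887, 1039 bp). It held 6 reads in -HOT and 68 in +HOT of KO1, and 2 and 90 in KO2. The ratio of reads was 11.3 in KO1 (95% exact counting interval 4.95 to 32.0) and 45.0 in KO2 (12.1 to 377). Both -HOT libraries were far below both +HOT libraries, while the size of the ratio in KO2 rests on 2 reads. The mature microRNAs of this gene, shown because the region is the first of the ranking, have these RefSeq sequences (GRCm38.p6), with the seed, bases 2 to 8, in capitals.
mmu-miR-193a-5p: uGGGUCUUugcgggcaagauga
mmu-miR-193a-3p: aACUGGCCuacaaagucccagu
The paralog Mir193b is also among the genes of the set.

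Brd2, which encodes a bromodomain protein that binds acetylated histones, carried 3 of the regions. The strongest (chr17:34256610-34257938) rose from 3 to 104 reads in KO1, 34.7 times (interval 11.5 to 171), and from 12 to 145 in KO2, 12.1 times (6.75 to 23.95). The region next to it went from 45 to 253 reads in KO1 and, in KO2, from 45 to 286. The one farther away went from 11 to 65 and from 19 to 90.0. At all 3 Brd2 regions the +HOT value was above the -HOT value in each line, as the rule requires. The one with 45 started from more -HOT reads than most of the set.

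Other leading regions belong to regulators of signalling and transcription. Trim8, a ubiquitin ligase of the tripartite motif family, went from 9 to 108 reads in KO1 and, in KO2, from 5 to 157. Rbpj, the DNA-binding effector of Notch signalling, went from 3 to 66 and from 6 to 105. Meis2, a homeobox factor, went from 6 to 68 and from 4 to 111. The rule fixed the direction in both lines, and the size of the ratio differed between KO1 and KO2 at each of them. At Map3k10, a kinase of the JNK cascade, the read ratio was 5.50 in KO1 (2.95 to 11.2), from 12 to 66 reads, but 99.1 in KO2 (17.4 to 3949), from 1 to 99.1. Ing1, a reader of methylated H3K4, was similar, with a ratio of 6.78 in KO1 (3.35 to 15.5) and 74.5 in KO2 (13.01 to 2980), the latter again from 1 read. The KO2 ratios of this pair have no useful upper bound. Fbxl19, Por, Pgrmc2 and Ier5l, also among the leading regions, had 2 to 7 reads in every -HOT library and 52 to 94.5 in every +HOT library. Across all 1063 regions, 2 had fewer than 3 -HOT reads in KO1 and 3 in KO2.

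The regions with the most +HOT H3K4me1 were also the widest. Tgif1, a homeobox repressor of TGF-beta signalling, had 8761 bp with 192 and 690 reads in KO1 and 216 and 833 in KO2. Ppp1r18 (6913 bp) had 128 and 498 in KO1 and 150 and 676 in KO2. Lncpint, a long noncoding RNA gene (5356 bp), had 105 and 391 and then 144 and 530. Ubl5, Gpc6 and Thoc6 followed with 370 to 378 reads in +HOT of KO1 and 418 to 505 in KO2. These 6 broad regions had log2 ratios from 1.84 to 2.32 in the lines. The narrowest regions were at 6820431F20Rik (435 bp), Pgrmc2 (495 bp) and Socs3 (497 bp).

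At the threshold the groups ran into each other. The lower of the line ratios was 1.8004 at Tctn1 and 1.8015 at L3mbtl2, which were taken, and 1.7997 at Pex2, 1.7992 at Tmem203 and 1.7984 at Trnau1ap, which were not. Tctn1, a gene of the ciliary transition zone, went from 29 to 112 reads in KO1 and, in KO2, from 34 to 121. Tmem203, just outside, went from 57 to 213 and from 80 to 281.

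Most of the regions lay within the H3K4me3 region of their promoter, and at the median they were narrower than the other eligible regions. Their width was from 435 to 8761 bp with a median of 1224 bp, against 1743 bp in the other eligible regions. Among regions wholly inside the H3K4me3 region, the medians were close, 1182.5 bp in the set and 1251 bp in the others. Of the 1063 regions, 304 were under 1000 bp and 32 over 3000 bp. A total of 962 (90.5%) lay wholly inside the H3K4me3 region, 99 overlapped its edge and 2 spanned it. Among the other eligible regions 1779 of 9362 (19.0%) lay inside, 6347 (67.8%) overlapped an edge and 1236 (13.2%) spanned it. The rule named no position beyond 1 shared bp, but it asks for few -HOT reads relative to the +HOT reads. Neighbouring H3K4me1 regions outside the set were mostly denser in -HOT, so the rule can shape the share inside as well. This share is given as a description, with no test. Each region of the set had at least 58.4% of its length inside. At the median the H3K4me1 region covered 51.2% of the H3K4me3 region.

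With the promoter requirement dropped, the H3K4me1 values of the rule picked 1095 of 43083 regions with 50 or more +HOT reads in both lines (2.54%). Of these, 1063 were the promoter regions described here. The other 32 lay on H3K4me3 regions outside the promoter lists, and 0 lay on no H3K4me3 region. Promoter H3K4me3 was present at 24.2% of the 43083 regions that could have been picked and at 97.1% of those that were.

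Relative to the nearest GENCODE TSS, the centres lay mostly just downstream. The centre was downstream of the TSS in 799 regions (75.2%, against 69.6% of the other eligible regions) and within 250 bp on either side in 314 (29.5% against 20.5%). In 465 regions (43.7% against 33.9%) it lay 250 to 1000 bp downstream. The median distance was 508 bp against 714 bp. With both groups limited to regions wholly inside the H3K4me3 region, it was 521 bp against 590 bp. A total of 563 regions (53.0% against 51.1%) held an annotated TSS. Divergent starts on both strands were inside 97 regions (9.13% against 6.87%). Protein-coding genes made up 95.5% of the set and 95.6% of the other eligible regions, so gene type did not set them apart.

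**Figure D1:**
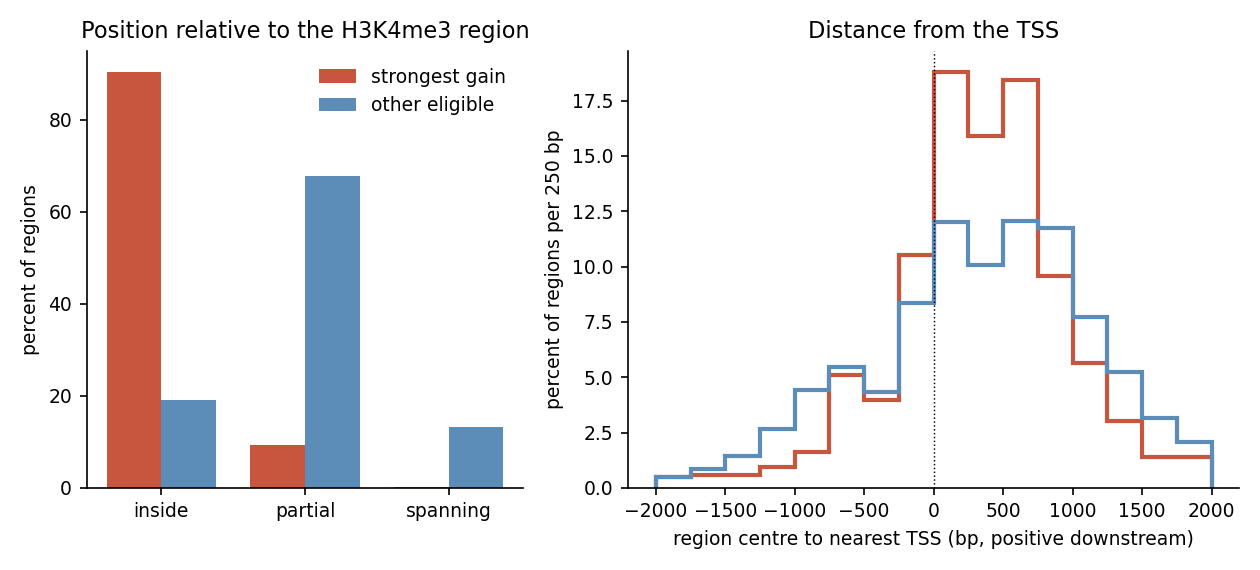
Left, percent of H3K4me1 regions that lay inside, partly across or all across the H3K4me3 region, for the 1063 regions with the strongest gain and the 9362 other eligible regions; right, percent of regions per 250 bp of distance from the region's centre to the nearest TSS, within 2000 bp. The strongest gains are 90.5% inside, against 19.0%, and their centres peak downstream of the TSS.

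Expressed per length, the regions of the set had lower -HOT and higher +HOT densities than the other eligible regions. The 1063 regions held a median of 13.98 reads per 1000 bp in KO1 and 17.4 in KO2 before deletion, and the other eligible regions held 30.8 and 39.1. After deletion the densities were 70.3 and 92.3 against 62.9 and 77.5. The rule asks for few -HOT reads relative to the +HOT reads, so both densities are shaped by it and are given as a description. When both groups were limited to regions wholly inside the H3K4me3 region (an alternative chosen after seeing the data), the -HOT densities were 13.6 and 16.8 against 22.6 and 28.4, and the +HOT densities 69.8 and 91.8 against 63.8 and 82.9.

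Neighbouring H3K4me1 regions are given beside them as a description. Of the 1063 regions, 902 had another called H3K4me1 region within 2000 bp and 448 had one on each side, and 1278 such neighbours were not of the set. The median gap to them was 384 bp. On the downstream side, towards the gene body, the neighbours (667 regions) held a median of 43.6 reads per 1000 bp in -HOT and 41.8 in +HOT of KO1, and 60.7 and 45.9 in KO2. On the upstream side (611 regions) they held 35.2 and 57.5 in KO1 and 46.0 and 69.2 in KO2. By these medians the neighbours were denser than the regions of the set in -HOT and less dense in +HOT. At the median a region held 0.339 times the -HOT density of its neighbour in KO1 and 0.315 times in KO2, and 1.41 and 1.66 times its +HOT density. Of the 1278 neighbours, 607 had a log2 ratio above 0 in both lines and 437 below 0 in both. The regions were chosen by these reads and the neighbours are those that the rule did not take, so the rule shapes both orders, and no test is given.

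The sequence of the regions was richer in CpG than that of other promoter H3K4me1 regions. The median was 4.23 CpG per 100 bp against 2.71, the observed over expected CpG ratio was 0.60 against 0.47, and the GC content was 54.1% against 48.9%. Limited to regions inside the H3K4me3 region, it was 4.28 against 3.34 CpG per 100 bp. Graded by the lower of the line ratios, CpG density went from 1.48 per 100 bp where that ratio was under 0 (533 regions) through 2.30 (0 to 0.9, 4515 regions), 3.30 (0.9 to 1.8, 4314 regions) and 4.13 (1.8 to 2.5, 895 regions) to 4.94 over 2.5 (168 regions). The share inside the H3K4me3 region went from 2.44% to 99.4% over the same steps. Over the 10425 eligible regions the mean H3K4me1 ratio and CpG density had Pearson's r = 0.51 and Spearman's rho = 0.52, and within the set r = 0.23 and rho = 0.17. These are descriptions across regions of the same libraries, and regions are not replicates. CpG density, position and H3K4me3 level move together here, and the part of each was not tested.

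**Figure D2:**
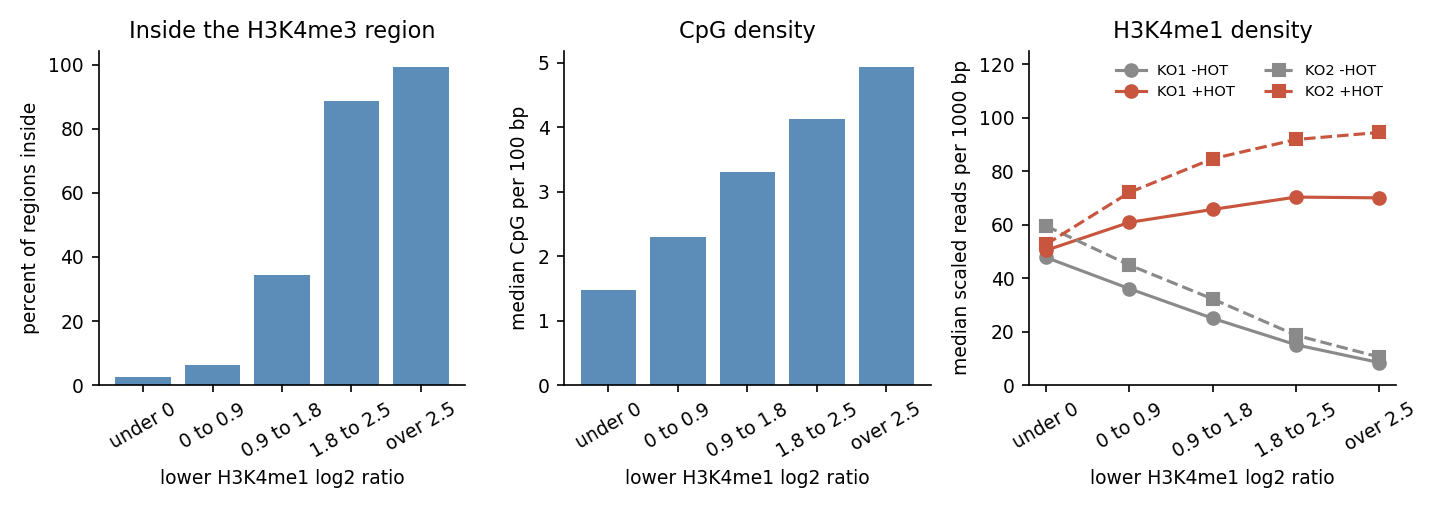
Eligible promoter H3K4me1 regions in 5 steps of the lower of the log2 H3K4me1 ratios of KO1 and KO2: percent inside the H3K4me3 region (left), median CpG per 100 bp (middle) and median H3K4me1 density in each library group (right). CpG density goes from 1.48 to 4.94 and the -HOT density from 47.7 to 8.4 reads per 1000 bp in KO1, while the +HOT density lies between 50.4 and 70.3 in KO1 and goes from 52.6 to 94.5 in KO2.

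Short promoter motifs were found at similar shares in the set and in all eligible regions. They were searched on both strands from 250 bp before to 50 bp after the TSS where the region held a TSS (563 regions of the set and 5349 of all eligible regions). The GC box GGGCGG was in 54.0% of the set and 54.8% of all, CCAAT in 34.8% and 32.8%, the ETS-type CGGAAG in 30.0% and 30.2%, and the CRE-type TGACGT in 10.5% and 10.4%. The TATA-type TATAAA (7.10% and 6.38%), the YY1-type ATGGCGG (6.57% and 6.90%) and the NRF1-type GCGCATG (5.15% and 6.34%) were rare in both. A match is a run of letters and not a binding site.

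H3K4me3, which the rule did not use beyond the presence of a region, fell at nearly all of these promoters. In -HOT the 1035 H3K4me3 regions held from 36.0 to 2288 reads in KO1 (median 475) and from 203 to 8266 in KO2 (median 1745). In +HOT they held from 5 to 1471 (median 256) and from 38 to 3036 (median 757). The median log2 ratio was -0.88 in KO1 and -1.19 in KO2, and the median share kept was 54.3% and 43.8%. The ratio was below 0 in both lines at 1034 of 1035 regions, and lower in KO2 than in KO1 at 984. In the limma fit over 16129 H3K4me3 regions with the line as block, 857 of the 1035 (82.8%) fell at a Benjamini-Hochberg adjusted p under 0.05 and 0 rose (0 also at an unadjusted p under 0.05 and by edgeR, against 0.0744% of all tested regions by limma and 0.0124% by edgeR). Over all tested regions 86.5% fell, and among the 7703 tested regions of other eligible promoters 6181 (80.2%), so the share at the strongest H3K4me1 gains was near the background. By edgeR on the recovered reads 1020 fell, against 94.5% of all tested regions. Without the line as block 0 were called by limma (also 0 of all 16129 tested regions), 5 falling at an unadjusted p under 0.05. With the median ratio of all regions set to 0 in each line, which removes a shift of -1.06 in KO1 and -1.63 in KO2, 50 fell and 108 rose relative to it (23.2% and 9.42% of all tested regions). The calls with a pseudocount of 5 were 828 (84.6% of all tested regions fell and 0.0186% rose), without a read minimum 384 (59.2% and 0.125%), with more than 50 reads 982 (95.1% and 0.00747%) and with a limma trend 1017 (92.5% and 0.0124%).

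The depth of the H3K4me3 loss was that of other promoters with H3K4me1. The 7927 H3K4me3 regions of the other eligible promoters had median log2 ratios of -0.89 and -1.26, and all tested regions -1.06 and -1.63. The level before deletion was somewhat higher at the strongest gains, with 185 reads per 1000 bp in KO1 and 690 in KO2 against 166 and 621. It also stayed higher in +HOT, with 98.6 and 299 against 87.5 and 257. In the authors' classes by summed H3K4me3 level, 95.9% of the 1063 regions were High in KO1 and 83.1% in KO2, against 83.6% and 67.1%. Among the 1063 regions the mean H3K4me1 and H3K4me3 ratios had r = 0.06 and rho = 0.05. Among all eligible regions r was 0.07 and rho 0.04.

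**Figure D3:**
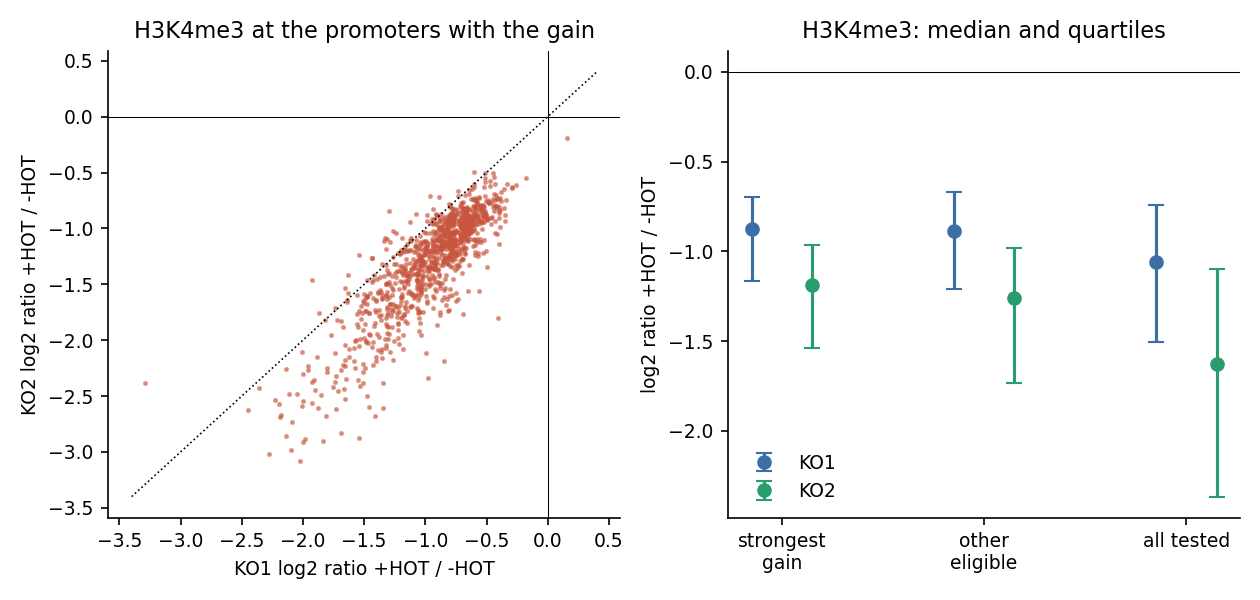
Left, log2 ratio of H3K4me3 (+HOT over -HOT) in KO1 and KO2 at the 1035 H3K4me3 regions, 1 point each, with the line of equal ratios dotted; right, median and quartiles of the ratio in KO1 and KO2 for these regions, those of other eligible promoters and all tested regions. All but 1 point lie below 0 in both lines, and the medians of -0.88 and -1.19 are close to -0.89 and -1.26 at the other eligible promoters.

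The individual promoters show both ends. The leading gene Mir193a went from 592 to 259 H3K4me3 reads in KO1 and, in KO2, from 2176 to 724 (log2 ratio -1.39, SE 0.391, limma adjusted p = 8.0e-04, lower in both lines). The H3K4me3 region at the strongest Brd2 region went from 825 to 366 and from 3395 to 1169 (-1.35, adjusted p = 0.0011 by limma). That of the Brd2 region farther away had a mean log2 ratio of -0.71 and did not pass in the limma fit. Pgrmc2 went from 156 to 46 and from 692 to 211 (-1.72, limma adjusted p = 3.1e-05). Of the 11 leading genes reported, 10 fell by limma, against 86.5% of all tested regions. Ier5l did not pass (-0.65, limma adjusted p = 0.10, and 0.013 to 0.65 under the alternatives). Relative to the median of all regions Map3k10, Rbpj, Ing1, Meis2, Por and Ier5l lay above 0, as they fell less than that median. The standard error is the same for every region because limma estimated infinite prior degrees of freedom.

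The 6 promoters of the set with the largest mean fall of H3K4me3 include several genes of signalling and development. Socs3, an inhibitor of cytokine signalling, went from 57.8 to 5 reads in KO1 and, in KO2, from 203 to 38 (mean log2 ratio -2.84, limma adjusted p = 6.5e-11). By edgeR the adjusted p at Socs3 was 8.3e-04, and its KO1 ratio rests on 5 +HOT reads. Dlx1, a homeobox factor of the forebrain, went from 348 to 71 and from 1063 to 130 (-2.65). The other 4 were Enpp1 (-2.55), a pyrophosphate-generating enzyme, Atf3 (-2.54), a stress-induced factor, Mir129-2 (-2.54) and Nr4a2 (-2.50), an orphan nuclear receptor, with limma adjusted p from 6.1e-10 to 3.9e-09 for Dlx1 and these 4. By edgeR the adjusted p ran from 6.3e-19 at Nr4a2 to 7.6e-04 at Mir129-2. H3K4me1 at these 6 promoters went up in the way that defines the set. At Atf3 it went from 6 to 56 reads in KO1 and, in KO2, from 13 to 66.4.

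The 5 promoters reported among those with the smallest mean fall of H3K4me3 lay above the median of all regions. At 6820431F20Rik the values were 274 and 306 in KO1 and 905 and 793 in KO2 (log2 ratio 0.16 and -0.19). Tcp1, a subunit of the cytosolic chaperonin, had 410 and 362 in KO1 and 1418 and 967 in KO2 (mean log2 ratio -0.36, limma adjusted p = 0.35). Uqcrc1, of respiratory complex III, had a mean log2 ratio of -0.43, Psma3, a proteasome subunit, -0.46 and Arpc5, of the Arp2/3 complex, -0.47, none past the threshold of the limma fit (adjusted p from 0.24 to 0.27). Their H3K4me1 gained over 1.8 in both lines, at Tcp1 from 8 to 55 reads in KO1 and, in KO2, from 6 to 80.9.

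Cell cycle genes were among those with the most regions in the set for their number. The list of DNA replication and cell cycle genes had 20 of 72 eligible regions in the set (27.8%, against 10.2% of all eligible regions). The highest ratios were at E2f3, an activating E2F factor, from 9 to 75 reads in KO1 and, in KO2, from 4 to 117, and at the D-type cyclins Ccnd2 (9 to 78 and 8 to 103) and Ccnd1 (15 to 81 and 9 to 128). Plk1, a mitotic kinase, went from 30 to 154 and from 29 to 221. The list further held Cdk4, Bub1b, the replicative helicase subunits Mcm4, Mcm5 and Mcm7, and the DNA polymerase genes Pola1, Pold3 and Pole. H3K4me3 fell by limma at 18 of these 20 promoters (86.5% of all tested regions fell), with a median log2 ratio of -1.27 against -1.04 over the whole set.

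Among lists of transcription factors, ETS factors had 6 of 21 eligible regions in the set (28.6%), and Elk3 led them with 9 to 104 reads in KO1 and 6 to 124 in KO2. Fli1, Ets1, Etv6 and Ets2 were others, and the list also counts Gabpb1, which encodes a subunit without an ETS domain. Homeobox genes had 12 of 56 (21.4%), among them Meis2, Six4 (14 to 170 and 18 to 206), the EMT factor Zeb2 and Cux1 with 2 regions each, and Hoxa9. Zfp zinc finger genes had 34 of 295 (11.5%), led by Zfp827, Zfp36l2, Zfp710 and Zfp608. That list goes by name and also holds genes that are not transcription factors, such as Zfp36l2. In these 3 lists H3K4me3 fell by limma at 5 of 6, 10 of 10 and 26 of 32 H3K4me3 regions, against 86.5% of all tested regions.

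Among chromatin regulators 30 of 160 eligible regions were in the set (18.8%), and these included the H3K4 methyltransferases themselves. Kmt2a had 2 regions, of which 1 went from 7 to 81 reads in KO1 and, in KO2, from 12 to 116. Its H3K4me3 region went from 291 to 78 in KO1 and, in KO2, from 1279 to 288 (log2 ratio -2.02, limma adjusted p = 1.2e-06), while that of the other Kmt2a region did not pass (-0.78, limma adjusted p = 0.054). Kmt2b (11 to 70 and 13 to 78.2), Kmt2d (9 to 51 and 7 to 55.5) and Men1, which encodes menin, a subunit of the KMT2A and KMT2B complexes (15 to 87 and 19 to 132), were also there. The cohesin gene Smc3 (5 to 68 and 13 to 97.3), the DNA methyltransferase gene Dnmt1, and Eed, Cbx8 and Pcgf2 of the Polycomb complexes completed the more familiar names. H3K4me3 fell by limma at 23 of 29 H3K4me3 regions of this list, against 86.5% of all tested regions.

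Matrix and adhesion genes, many of them products of fibroblasts, had 20 of 117 regions in the set (17.1%). Fbn1, the main fibrillin of microfibrils, went from 4 to 58 reads in KO1 and, in KO2, from 11 to 100.0. Sparc, a collagen-binding matrix protein, went from 27 to 159 and from 12 to 204, and Col12a1 from 11 to 60 and from 6 to 110. H3K4me3 fell by limma at 16 of 19, against 86.5% of all tested regions. All 10 fibroblast marker genes had promoter H3K4me3 and 3 of them (Col1a1, Pdgfra and Twist1) belonged to the set, whereas of 8 markers of other lineages only Epcam had a promoter H3K4me3 region, with 72.0 -HOT reads in KO1 and 251 in KO2.

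Small RNA genes had 17 of 106 regions (16.0%), with Snhg15, a host of small nucleolar RNAs, at 13 to 136 and 12 to 177 reads, Mir99b at 26 to 163 and 13 to 200, and Mir21a also in the list. Cytosolic ribosomal protein genes had 12 of 69 (17.4%), RNA processing genes 18 of 138 (13.04%), solute carriers 18 of 163 (11.04%), oxidative phosphorylation genes 9 of 84 (10.7%) and translation factors with tRNA synthetases 10 of 96 (10.4%). Near or below the share of all eligible regions were the RNA polymerases and general transcription factors (9 of 99, 9.09%), DEAD and DEAH box helicases (4 of 50, 8.00%), ubiquitin enzymes (21 of 270, 7.78%) and Tmem genes (8 of 117, 6.84%). The ubiquitin list also holds genes that do not encode ubiquitin enzymes, such as those of the proteasome subunits Psma3 and Psma5. Histone genes (3 of 59, 5.08%) and mitochondrial ribosomal protein genes (3 of 73, 4.11%) had the smallest shares. These shares describe the lists, whose regions were counted with results already known, and no test is given. H3K4me3 fell by limma at 14 of 16 small RNA, 8 of 12 cytosolic ribosomal, 7 of 16 RNA processing, 16 of 17 solute carrier, 4 of 9 oxidative phosphorylation and 8 of 10 translation promoters of the set, against 86.5% of all tested regions, and differences between lists were not tested.

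Promoters that the study followed by name lay outside the set. Cdh3, a cadherin gene, had an eligible region that went from 182 to 369 H3K4me1 reads in KO1 and, in KO2, from 167 to 388 (log2 ratio 1.02 and 1.21), and its H3K4me3 fell (mean log2 ratio -2.07, limma adjusted p = 7.0e-07). Hsp90b1, an endoplasmic reticulum chaperone, went from 53 to 111 and from 63 to 153 (1.05 and 1.26), while another H3K4me1 region of Hsp90b1, below the minimum, went from 35 to 19 and from 55 to 17.3 (-0.85 and -1.62). The regions of Mapk12 and Rab27a had 8 to 30 reads in every +HOT library and were below the minimum. No H3K4me1 region on promoter H3K4me3 carried the names Flywch2 or Atp9a.

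The total depth of the libraries is unknown from the values used. For H3K4me1 of KO1, labelled raw counts, reads within called regions summed to 6157647 in -HOT and 7939532 in +HOT. In KO2 the scaled H3K4me1 reads summed to 7156632 and 8225505. For H3K4me3 the scaled reads summed to 4588434 and 2441698 in KO1 and to 17532750 and 6978481 in KO2. The 1063 regions took 0.348% of the H3K4me1 reads in -HOT of KO1 and 1.33% in +HOT, and 0.370% and 1.70% in KO2. Counting intervals cover counting error only.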

How the data were processed

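Chromatin immunoprecipitation libraries for H3K4me1 and H3K4me3 of the KO1 and KO2 lines were analysed (8 of 20 libraries; the other 12 were not used here). Per the study's methods, the authors aligned reads to mm9 with BWA, removed duplicates, called broad H3K4me1 and narrow H3K4me3 peaks with MACS2, counted reads per region and scaled them to the lowest coverage. The deposited values are therefore a scaled read signal, except that both KO1 libraries of H3K4me1 are labelled raw counts. Values times 1.333 (KO1 -HOT, H3K4me3), 1.01 (KO2 -HOT, H3K4me3) or 1.1 (KO2 +HOT, H3K4me1) were whole reads within 0.001 in 100% of regions. The deposited coverage holds no total per library. Deposited fold changes were not used. H3K4me1 rows with fractional coordinates or counts (5601, on a stretch of chromosome 1) and 14 repeated header lines were left out. Regions on that stretch that would meet the rule are therefore missing from the set. Promoters are the authors' regions within 3000 bp of a TSS.

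Each H3K4me1 region was joined to the promoter H3K4me3 region with the longest overlap. H3K4me3 was tested with limma 3.58.1 on log2(value + 1) over regions whose higher condition held more than 20 reads in KO1 and in KO2, with the line as block (the study took ratios within a line; samples of a line deviated together, r = 0.59 for H3K4me3 and 0.58 for H3K4me1), and Benjamini-Hochberg adjustment at 0.05. edgeR ran on recovered reads with the authors' factors as offsets. The scripts were tested on simulated data. TSS, exons and sequence came from GENCODE and NCBIM37. Fold changes at low values are understated by the pseudocount. The genes named were the 12 highest mean ratios, the 6 with most +HOT reads, the 6 with the largest and 6 with the smallest H3K4me3 fall, the 3 widest, narrowest and nearest the threshold on each side, up to 4 per gene list, and genes named by the study; other names were added after their values were seen, and some results under this rule are not reported here. The members and gene lists were chosen with earlier results of these data known. P-values rest on 2 lines. In the main limma fit they use a common spread between the lines, pooled over all tested regions, and not the spread of each region.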

Additional observations from a re-analysis of the deposited data

Results flagged for a closer look

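At 6820431F20Rik the H3K4me3 log2 ratio had opposite signs in the lines, 0.16 in KO1 and -0.19 in KO2. The difference was not tested. With 1 library per line and condition no group had 4 or more samples, so no search for a library far from the others was run.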

How the results depend on the processing

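Of the 1035 H3K4me3 regions, 857 fell with the line as block and 0 without the replicate block (5 at an unadjusted p under 0.05 by limma; 1020 by edgeR with the block). Of all tested regions 86.5% fell with the block, 0% without it and 59.2% without a read minimum. The count among the 1035 was 384 without a read minimum. With the median log2 ratio of all regions set to 0 in each line (a shift of -1.06 in KO1 and -1.63 in KO2), 50 fell and 108 rose relative to that median; the cause was not tested. It stayed within 1.5 times with a pseudocount of 5, more than 50 reads, a limma trend or edgeR (828 to 1020). Leaving out a line gives no test.

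The number of regions was 1934 with a log2 ratio over 1.5, 658 over 2, 374 with 100 or more +HOT reads, 1597 with 20 or more and 693 with the median H3K4me1 ratio set to 0. With 1 line left out it was 1527 to 2314. The share inside the H3K4me3 region was 79.6%, 95.1%, 78.9%, 93.6% and 93.9% under these settings and 80.9% to 87.3% with a line left out. These re-definitions of the set were added after seeing the data for this share, and also for CpG density and the H3K4me3 median, where each stayed within the spread (3.97 to 4.47 CpG per 100 bp, and mean log2 ratios of -1.14 to -1.03). The H3K4me3 median was -1.19 without KO1 and -0.88 without KO2.

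With the median log2 ratio of all regions set to 0, some named promoters lay above 0, as their H3K4me3 fell less than the median. Map3k10 (0.28), Rbpj (0.075), Ing1 (0.23), Meis2 (0.21), Por (0.49) and Hsp90b1 (0.55) did not pass in that fit (limma adjusted p from 0.080 to 0.83). Ier5l (0.70), 6820431F20Rik (1.33), Tcp1 (0.98), Uqcrc1 (0.91), Psma3 (0.88) and Arpc5 (0.88) did. Of 25 named promoters 19 lost their call without the block, where 0 of all 16129 tested regions were called. Without a read minimum 5 lost it, and 59.2% of all tested regions fell. Ier5l gained a call with a limma trend (adjusted p = 0.013), edgeR (0.014) and more than 50 reads (0.0495), and Psma3 with edgeR (0.0490). Depth limits ratios that start from fewer than 3 reads.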
